A study of Mus musculus with 6 samples.

Results

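The 10 genes described here, Tcstv1, Tcstv3, AF067061, BC147527, Gm20767, Zfp352, Ubtfl1, Usp17la, Tdpoz1 and Arg2, were selected on their values in 1 haploid mouse embryonic stem (ES) cell line, HTG1, where all of them stood high. They are 10 of the 18193 genes measured on Affymetrix mouse arrays with a probe set that the platform annotation ties to a single gene symbol. A gene was represented by its probe set with the highest mean over the 6 arrays of the study. HTG1, labelled mixed transgenic, was at passage 11; the haploid lines HAP1 and HAP2, of F1 CBAxB6 background, were at passages 24 and 21. The 3 diploid control arrays came from male ES cells, of strain 129Sv for replicates 1 and 2 and 129 for replicate 3. All cells grew in 2i medium, a culture medium in which MEK and GSK3 are inhibited to hold ES cells in the naive state, and RNA was taken on day 2 after passaging, with 1 array per sample. What the transgene is, and how many cells were still haploid, is not given in the sources used here. Line, strain background, transgene and passage differ together between HTG1 and the other haploid lines and cannot be told apart. Ploidy, line, strain background and, for HTG1, the transgene also differ together between the haploid and the diploid arrays and cannot be told apart there. The part of the male sex of the diploid cells in these differences was not tested. The diploid titles give a replicate number and no line name, so p-values measure the spread between these arrays.

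In the mouse, the embryo's own genome is switched on in earnest at the 2-cell stage, when a set of genes and the retrovirus-like element MERVL are transcribed in a short burst. A small, changing minority of cells in mouse ES cultures enters a state that resembles this stage, known as 2-cell-like, and leaves it again. Duplicated gene families such as Zscan4, Tcstv, Tdpoz and Usp17l, as well as Zfp352, are markers of that state. In RNA from whole cultures, more cells of such a kind and more RNA per cell cannot be told apart. A level below is the deposited log2 value of a probe set, and levels of different genes are not compared with each other. A difference is a subtraction of such levels, and a difference of 1 is a change of 2-fold. Because the members were selected for high values in HTG1, the comparisons of HTG1 with other arrays are descriptions for these genes and carry no test.

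Of the 10 genes, the 3 with the widest differences between HTG1 and HAP were among 5 that lie together at the end of chromosome 13. Tcstv1, a member of a variable gene group of the 2-cell stage that has been linked to telomere length in mouse ES cells, had levels of 3.40, 3.51 and 3.37 on the diploid arrays, 5.20 in HAP1, 5.12 in HAP2 and 8.92 in HTG1. The order was thus diploid, HAP and HTG1, and no value of one set overlapped another. HTG1 exceeded the mean of HAP1 and HAP2 by 3.76, which is 13.6-fold, and the diploid mean by 5.50, which is at least 45.2-fold. Folds are written as "at least" where the dimmer group's mean lay under 4.80, which was the lowest lower quartile of any array, because the normalization used compresses differences of dim genes. Its relative Tcstv3 had levels of 4.04, 3.93 and 4.19 on the diploid arrays, 4.39 in HAP1, 3.81 in HAP2 and 7.07 in HTG1. For Tcstv3 the HAP values spanned the diploid values, and HTG1 alone stood apart, by 2.97 over HAP (at least 7.86-fold) and 3.02 over diploid (at least 8.10-fold).

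Of the other genes in this group, which carry only clone or predicted-gene names, AF067061 had levels of 7.13, 7.02 and 7.32 on the diploid arrays, 7.86 in HAP1, 7.84 in HAP2 and 12.2 in HTG1. HTG1 was higher by 4.32 than HAP (20.0-fold) and by 5.02 than diploid (32.4-fold). Gm20767 had levels of 4.70, 4.26 and 3.95 on the diploid arrays, 4.89 in HAP1, 4.90 in HAP2 and 9.71 in HTG1. Its difference of 4.82 from HAP (28.2-fold) was the widest of the 10 genes, and that from diploid was 5.41 (at least 42.4-fold). BC147527 had levels of 3.38, 3.37 and 3.50 on the diploid arrays, 3.46 in HAP1, 3.41 in HAP2 and 6.22 in HTG1. The 5 values outside HTG1 lay within one narrow band at the dim end of the array, and the differences were 2.78 from HAP (at least 6.87-fold) and 2.80 from diploid (at least 6.97-fold). AF067061 and BC147527 were represented by probe sets with the suffix x_at, whose probes may match other transcripts as well. Copies of this family lie side by side, so a signal cannot be assigned to one of them with certainty.

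**Figure D1:**
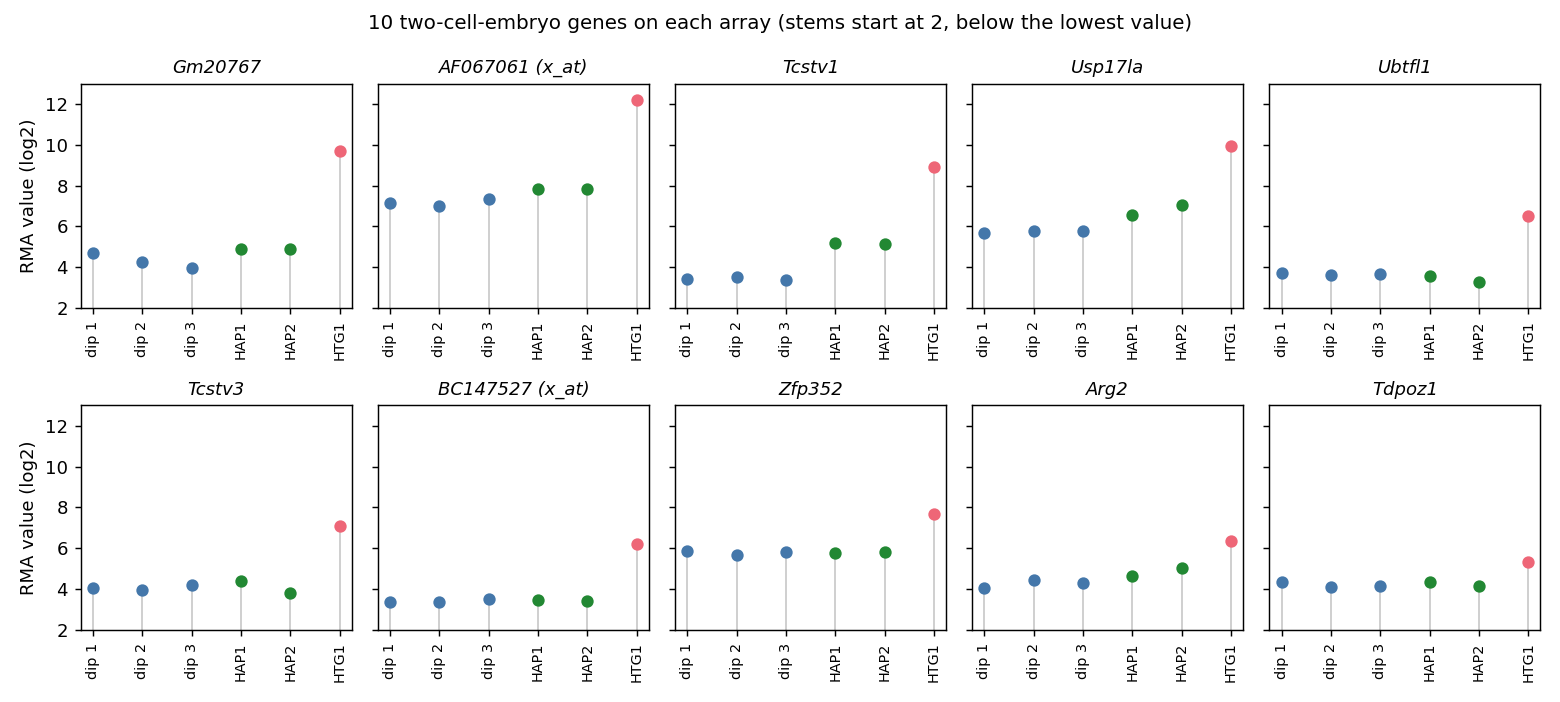
RMA level (log2) of each of the 10 genes on each of the 6 arrays, 1 point per array, with blue for diploid replicates 1 to 3, green for HAP1 and HAP2 and red for HTG1; stems start at 2. HTG1 is the highest array in all 10 panels, and the HAP arrays stand above every diploid array for Gm20767, AF067061, Tcstv1, Usp17la and Arg2.

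Zfp352 and Ubtfl1 encode proteins with domains that bind DNA. Zfp352, a zinc finger gene of the early embryo, had levels of 5.88, 5.68 and 5.81 on the diploid arrays, 5.76 in HAP1, 5.80 in HAP2 and 7.67 in HTG1. Diploid and HAP values lay among each other, and HTG1 was 1.89 above HAP (3.70-fold) and 1.88 above diploid (3.67-fold). A second Zfp352 probe set, with the suffix x_at, read 5.31, 5.39 and 5.32 on the diploid arrays, 5.21 in HAP1, 5.56 in HAP2 and 7.34 in HTG1, which is the same order of HTG1 over all others. Ubtfl1, an HMG-box gene of preimplantation embryos, had levels of 3.71, 3.63 and 3.68 on the diploid arrays, 3.57 in HAP1, 3.29 in HAP2 and 6.53 in HTG1. The HAP values were here the lowest, and the differences of HTG1 were 3.11 from HAP (at least 8.61-fold) and 2.86 from diploid (at least 7.27-fold).

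Usp17la and Tdpoz1 belong to the ubiquitin pathway or resemble its parts. Usp17la, a deubiquitinating enzyme first known as DUB-1, had levels of 5.69, 5.78 and 5.77 on the diploid arrays, 6.55 in HAP1, 7.07 in HAP2 and 9.93 in HTG1. The 3 sets did not overlap, with HTG1 at 3.12 above HAP (8.71-fold) and 4.19 above diploid (18.2-fold). Tdpoz1, which combines a TRAF-like and a POZ domain as the ubiquitin ligase adaptor Spop does, had levels of 4.36, 4.08 and 4.15 on the diploid arrays, 4.36 in HAP1, 4.13 in HAP2 and 5.35 in HTG1. Its differences, 1.10 from HAP (at least 2.15-fold) and 1.15 from diploid (at least 2.22-fold), were the smallest of the 10 genes.

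Arg2, the mitochondrial arginase that splits arginine into ornithine and urea, is the only metabolic enzyme in the set and is active in many adult tissues. Its levels were 4.07, 4.42 and 4.29 on the diploid arrays, 4.65 in HAP1, 5.04 in HAP2 and 6.33 in HTG1. HTG1 was 1.48 above HAP (2.79-fold) and 2.07 above diploid (at least 4.19-fold), and the HAP arrays lay above every diploid array. A second Arg2 probe set, with the suffix s_at, read 3.84, 3.69 and 3.91 on the diploid arrays, 3.57 in HAP1, 4.04 in HAP2 and 4.90 in HTG1. On that probe set the HAP values spanned the diploid values. With the mean of both probe sets the difference between HTG1 and diploid was 1.58.

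HTG1 was the highest of the 6 arrays for 10 of the 10 genes, as it was for 17.3% of all genes. The gap from HTG1 to the next array was at least 1 for 9 of the 10, and 0.533% of all genes had such a gap; nothing is read from these counts, since the genes were selected on them. Gaps ran from 0.99 for Tdpoz1, which ranked 100 among 18193 genes, to 4.81 for Gm20767, which ranked 1. AF067061 ranked 2, Tcstv1 4, Usp17la 11, Ubtfl1 12, BC147527 14, Tcstv3 16, Zfp352 30 and Arg2 62. The median difference of the 10 genes was 3.04 between HTG1 and HAP and 2.94 between HTG1 and diploid, beside -0.01 and -0.04 for all genes. The median level of the 10 genes was 4.21, 4.17 and 4.17 on the diploid arrays, 4.77 in HAP1, 4.97 in HAP2 and 7.37 in HTG1. Each gene followed the mean pattern of the 10 over the 6 arrays with a Pearson r of 0.956 (Arg2) to 0.999 (AF067061), a description in which the HTG1 point dominates.

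**Figure D2:**
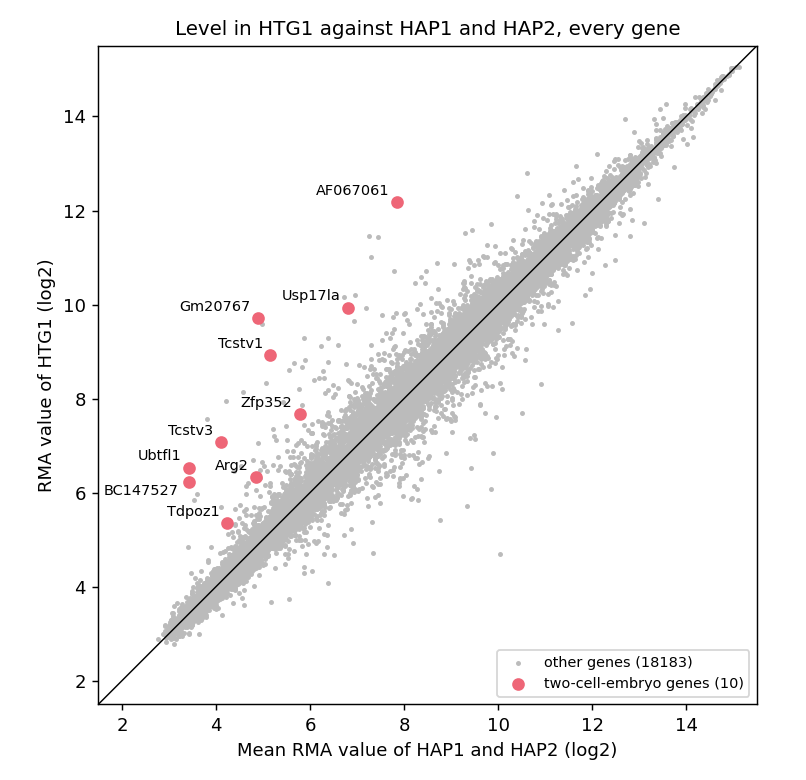
Level in HTG1 (vertical, RMA log2) against the mean level of HAP1 and HAP2 (horizontal, RMA log2) for 18193 genes, 1 point per gene, with the 10 selected genes in red and the line of equal levels in black. All 10 lie above the line, from 1.10 (Tdpoz1) to 4.82 (Gm20767), and other genes lie away from it in both directions.

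HAP1 and HAP2 were also set against the diploid arrays, a comparison that leaves out HTG1, although the HAP values may have entered the choice of the genes, so the tests below support nothing about the choice. Tcstv1 was higher in the HAP lines by 1.73 (at least 3.32-fold; limma adjusted p = 0.0027 over all genes), Usp17la by 1.06 (2.09-fold; limma adjusted p = 0.0158) and AF067061 by 0.69 ± 0.12 (SE; 1.62-fold; limma adjusted p = 0.0224). These 3 of the 10 genes passed, and 6.11% of all genes were higher in HAP by the same test. Usp17la did not pass without diploid replicate 2 (limma adjusted p = 0.0608) or 3 (0.0731). AF067061 did not pass without diploid replicate 2 (limma adjusted p = 0.0757), diploid replicate 3 (0.0563), HAP1 (0.0795) or HAP2 (0.0964). Tcstv1 passed in each such repeat. Arg2 (0.58, limma adjusted p = 0.0784) and Gm20767 (0.59, limma adjusted p = 0.140) had HAP values above all diploid values without passing. The remaining 5 did not pass, with differences from -0.24 for Ubtfl1 to 0.05 for Tdpoz1. The median of the 10 genes in this comparison was 0.32, beside -0.02 for all genes.

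Promoter sequences of the genes are shown because several members of the set carry the same run of letters just before their start sites. RefSeq promoter windows of assembly GRCm38.p6, from 250 bases before to 50 after the start of a gene, were at hand for 6 of the 10 genes: Tdpoz1, Zfp352, Usp17la, Ubtfl1, AF067061 and BC147527. They held 0 to 2 CpG pairs each, beside a median of 7 over 32851 such windows, of which 31.4% had at most 3. The GC content was 41.3% for Tdpoz1, 47.0% for Zfp352, 42.0% for Usp17la, 46.0% for Ubtfl1, 44.0% for AF067061 and 51.3% for BC147527, all under the median of 52.7%. The 3 windows below, each printed in the direction of its gene, have in capitals the longest run of letters that they share, ACACACCTTTAAT, and, in Tdpoz1 and AF067061 only, the TATA-like word TATATAA.
Tdpoz1 (chr3:93676234-93676533, minus strand): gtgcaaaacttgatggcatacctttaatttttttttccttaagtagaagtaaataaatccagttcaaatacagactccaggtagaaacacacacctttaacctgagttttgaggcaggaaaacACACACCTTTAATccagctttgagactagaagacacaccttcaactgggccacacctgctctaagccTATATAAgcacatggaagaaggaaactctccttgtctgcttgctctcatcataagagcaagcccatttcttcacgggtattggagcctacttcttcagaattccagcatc
Zfp352 (chr4:90218570-90218869, plus strand): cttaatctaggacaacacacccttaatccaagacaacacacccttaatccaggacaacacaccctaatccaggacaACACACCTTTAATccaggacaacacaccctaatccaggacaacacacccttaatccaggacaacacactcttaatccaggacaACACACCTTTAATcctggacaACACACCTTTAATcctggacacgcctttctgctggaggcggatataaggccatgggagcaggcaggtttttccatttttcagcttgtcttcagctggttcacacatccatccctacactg
AF067061 (chr13:120262845-120263144, plus strand): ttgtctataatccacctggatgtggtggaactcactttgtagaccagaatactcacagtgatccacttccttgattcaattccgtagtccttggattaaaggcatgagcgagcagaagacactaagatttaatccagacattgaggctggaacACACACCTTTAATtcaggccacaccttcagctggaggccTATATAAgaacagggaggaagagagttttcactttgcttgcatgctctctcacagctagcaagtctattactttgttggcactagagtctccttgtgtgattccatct
The shared run was picked after the sequences were seen, so its presence in these 3 is by construction. It occurs once in Tdpoz1, starting at base -127 from the gene's start, once in AF067061, at -97, and 3 times in Zfp352, at -174, -91 and -70. It was found on either strand in 0.131% of all 32851 windows. TATATAA starts at -60 in Tdpoz1 and at -58 in AF067061, and it was found on either strand in 3.24% of all windows. The planned word was TATAAA and TATATAA was added to it, so nothing is read from the presence of TATATAA. The word TATAAA, found on either strand in 13.6% of all windows, was in none of the 6. A match of letters is a description and does not show that a factor binds there.

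In the RefSeq gene order of chromosome 13, 28 entries run from Tcstv1 to Tcstv3, of which 10 are protein coding and 13 are pseudogenes, and no entry follows Tcstv3. The 5 of these entries with a probe set of a single symbol are the members Tcstv1, Gm20767, AF067061, BC147527 and Tcstv3. For AF067061 and BC147527 that probe set has the suffix x_at. The genes on the other side of Tcstv1 were not part of the selected set and were tested. Whether the probe sets of the closest ones also read RNA of the cluster's copies was not tested, so they are no independent support for the selected genes. In HTG1 against HAP1 and HAP2, 44 of 18193 genes were higher (0.242%) and 24 were lower (0.132%) at a limma adjusted p of 0.05. Of the 10 measured genes next to Tcstv1, 2 were higher and both were the closest ones. D13Ertd608e, the nearest, had levels of 5.31, 5.06 and 4.98 on the diploid arrays, 5.42 in HAP1, 5.14 in HAP2 and 7.12 in HTG1. Its difference between HTG1 and HAP was 1.84 ± 0.20 (SE; limma adjusted p = 0.0285), measured on a probe set with the suffix s_at. AF067063, the next, had levels of 4.58, 4.75 and 4.91 on the diploid arrays, 5.02 in HAP1, 4.77 in HAP2 and 7.06 in HTG1. Its difference was 2.16 ± 0.19 (SE; limma adjusted p = 0.0130); it was singled out for its place after its values were seen. For both genes HTG1 stood above every other array, while diploid and HAP values overlapped.

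Both calls depended on single arrays; leaving out a diploid array changes only the estimate of the spread in this comparison. The limma adjusted p without diploid replicate 2 rose to 0.113 for D13Ertd608e and 0.0655 for AF067063, and without diploid replicate 3 to 0.115 and 0.0548. Without HAP2 it was 0.0513 for D13Ertd608e. The third gene out, Gm46390, differed by -0.10 (limma adjusted p = 0.974), and the zinc finger gene Zfp131 beyond it by 0.09 (limma adjusted p = 0.958). Further out, the cholesterol synthesis enzyme Hmgcs1 differed by 0.08 and the chemokine Ccl28 by -0.05, and neither passed. Tmem267 differed by -1.48 without passing, with a level of 6.47 in HAP2 and 3.68 to 4.42 on the other arrays. Around the members on chromosomes 3, 4, 7, 9 and 12, 0 of 20 measured neighbours passed on each chromosome, with lowest limma adjusted p-values of 0.506, 0.283, 0.369, 0.0847 and 0.549. The lowest of these belonged to Zfp560, near Ubtfl1 on chromosome 9, with levels of 7.20, 7.69 and 7.46 on the diploid arrays, 7.34 in HAP1, 7.74 in HAP2 and 9.25 in HTG1. HTG1 was its highest array, by 1.71 over HAP without passing and by 1.80 over diploid (limma adjusted p = 0.0138, or 0.0625 without diploid replicate 3), and its difference from HAP was wider than those of Arg2 and Tdpoz1. With the selected genes left out, 3 of the 697 measured genes of chromosome 13 were higher in HTG1 (0.43%), both neighbours and Ankrd31, and the highest share of any other chromosome was 0.437%.

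**Figure D3:**
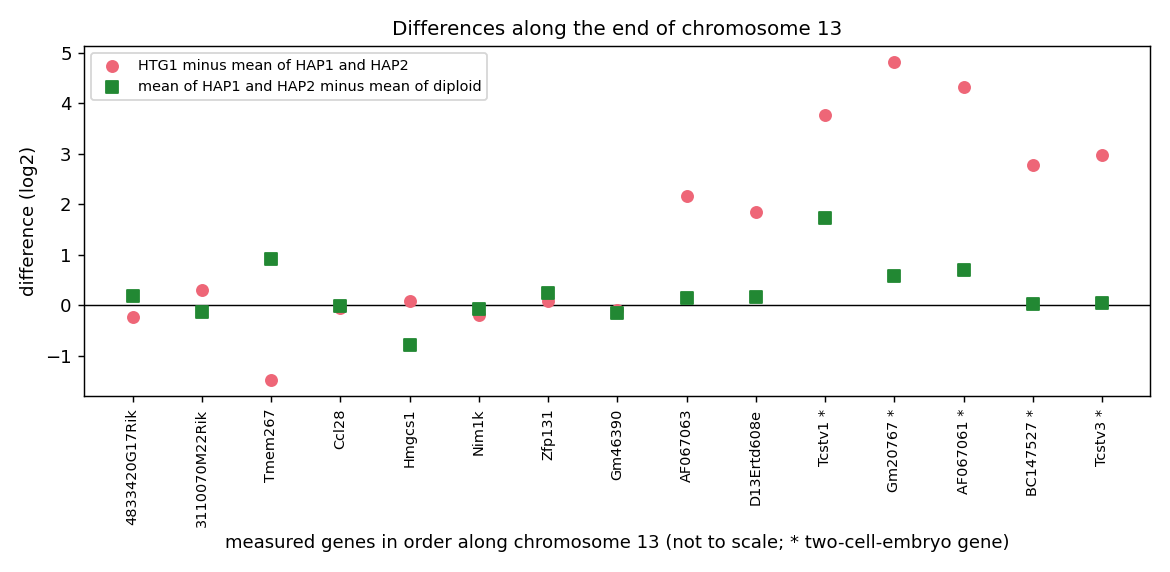
Difference in level (log2) for measured genes in their order along the end of chromosome 13, not to scale, with red circles for HTG1 minus the mean of HAP1 and HAP2 and green squares for that mean minus the diploid mean; the asterisk marks the selected genes. Red circles lie between 1.84 and 4.82 from AF067063 to the last gene and near or below 0 for Gm46390 and most genes before it, while the highest green square is that of Tcstv1, at 1.73.

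Further genes known from the 2-cell stage were compared across the lines. From a list of 42 such genes, 8 had a probe set with a single symbol; the Zscan4 family and the further Tdpoz and Usp17l copies had none and were not analysed here. In HTG1 against HAP, 0 of the 8 passed limma's adjusted p in either direction, 2 had an unadjusted p under 0.05, and the median difference was -0.05. The 2 with such a p, Obox6 and Sp110, were both lower in HTG1, and 9.17% of all genes had an unadjusted limma p under 0.05. HTG1 was above every other array for 0 of the 8, beside 17.3% of all genes. Zfp365, a zinc finger gene, had levels of 7.25, 7.57 and 7.47 on the diploid arrays, 7.96 in HAP1, 9.05 in HAP2 and 8.65 in HTG1, so HTG1 lay between both HAP lines (difference 0.15, limma adjusted p = 0.984). Trim43a, of a ubiquitin ligase family, differed by 0.01 (limma adjusted p = 0.999). Sp110, a nuclear body gene, differed by -0.44 (limma adjusted p = 0.426). Duxf3, a copy of the homeobox gene family that includes Dux, was looked up outside the list, after the values were seen, and had a mean level of 4.24 in diploid, 4.12 in HAP and 4.48 in HTG1.

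The homeobox genes Obox6 and Obox3, of a family active in oocytes and early embryos, were lower in HTG1 than in diploid cells. Obox6 had levels of 7.48, 6.95 and 7.34 on the diploid arrays, 6.82 in HAP1, 6.80 in HAP2 and 5.92 in HTG1. HTG1 was the lowest array, at -1.34 from diploid (limma adjusted p = 0.0216) and -0.89 from HAP (limma adjusted p = 0.284). Obox3 differed by -0.62 from diploid (limma adjusted p = 0.0384) and by -0.22 from HAP. These 2 of 8 were set against 4.87% of all genes higher and 3.46% lower in HTG1 than in diploid. Obox6 did not pass without diploid replicate 3 (limma adjusted p = 0.0867). Obox3 did not pass with repeated quantile normalization (limma adjusted p = 0.0502), without diploid replicate 2 (0.101) or 3 (0.121), or without either HAP line (0.0546).

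Regulators of the 2-cell-like state were measured for most listed genes. Of 27 measured repressors, 0 passed in HTG1 against HAP by limma, 1 had an unadjusted p under 0.05, as did 9.17% of all genes, and the median difference was 0.10. Among them Trim28, a co-repressor that recruits histone methylation to retroviral elements, differed by -0.03 (limma adjusted p = 0.996) and nucleolin, Ncl, by -0.03 (limma adjusted p = 0.992). Against diploid, 3 of the 27 passed in HTG1: the chromatin remodeller Atrx was higher by 1.58 (limma adjusted p = 0.00746), Max, a partner of Myc, was higher by 0.88 (limma adjusted p = 0.0275), and the insulator protein Ctcf was lower, at -1.02 (limma adjusted p = 0.0173). By the same test, 4.87% of all genes were higher in HTG1 than in diploid and 3.46% were lower. In HAP against diploid, which shares the diploid arrays, the differences of Atrx, Max and Ctcf were 1.10, 0.71 and -0.70. Atrx lies on chromosome X, and the part of X copy number in its difference from the male diploid cells was not tested. In HTG1 against diploid, Max and Ctcf did not pass without diploid replicate 2 (limma adjusted p = 0.0835 and 0.0555) or 3 (0.0709 and 0.0720), and Atrx passed in each repeat, at 0.95 with the mean of its probe sets. Of 6 measured activators, 0 passed in HTG1 against HAP by limma, and 3 had an unadjusted p under 0.05. These went both ways, with Dppa3 at -1.42, Gata2 at -0.62 and Nelfa at 0.58. Against diploid, Dppa3 differed by 1.72 in HTG1 and 3.14 in HAP, and Gata2 by 0.88 and 1.51. Nelfa differed from diploid by 0.25 in HTG1 and -0.33 in HAP. Dppa4, which with Dppa2 acts upstream of Dux, differed by 0.17 (limma adjusted p = 0.838), and the chromatin remodeller Smarca5 by -0.05 (limma adjusted p = 0.990). Of 22 measured oocyte and maternal-effect genes, 0 passed by limma, with 2 at an unadjusted p under 0.05. Ooep, of the subcortical maternal complex, differed by 0.17 (limma adjusted p = 0.940) and the kinase coactivator Tcl1 by 0.53 (limma adjusted p = 0.413).

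Arg2 was set beside other genes of arginine use. Of 15 measured arginine and urea cycle genes other than Arg2, 0 passed in HTG1 against HAP by limma, with 2 at an unadjusted p under 0.05 and a median difference of 0.10. Among all genes, 9.17% had such an unadjusted p. Odc1, which turns ornithine into putrescine, had levels of 12.8 on each diploid array, 12.9 in HAP1, 13.1 in HAP2 and 13.5 in HTG1. HTG1 was the highest array, by 0.48 over HAP (limma adjusted p = 0.369) and 0.68 over diploid (limma adjusted p = 0.0356). Srm, spermidine synthase, was 0.93 above diploid in HTG1 (limma adjusted p = 0.0149) and 0.17 above HAP (limma adjusted p = 0.833). Odc1 did not pass against diploid without diploid replicate 2 (limma adjusted p = 0.102) or 3 (0.108), or when its probe sets were averaged (0.37, limma adjusted p = 0.151). Srm did not pass without diploid replicate 2 (limma adjusted p = 0.0555) or 3 (0.0671). Beside Odc1 and Srm, 4.87% of all genes were higher in HTG1 than in diploid by the same test, and 3.46% were lower. Arg1, the cytosolic arginase, differed by 0.09 between HTG1 and HAP.

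**Figure D4:**
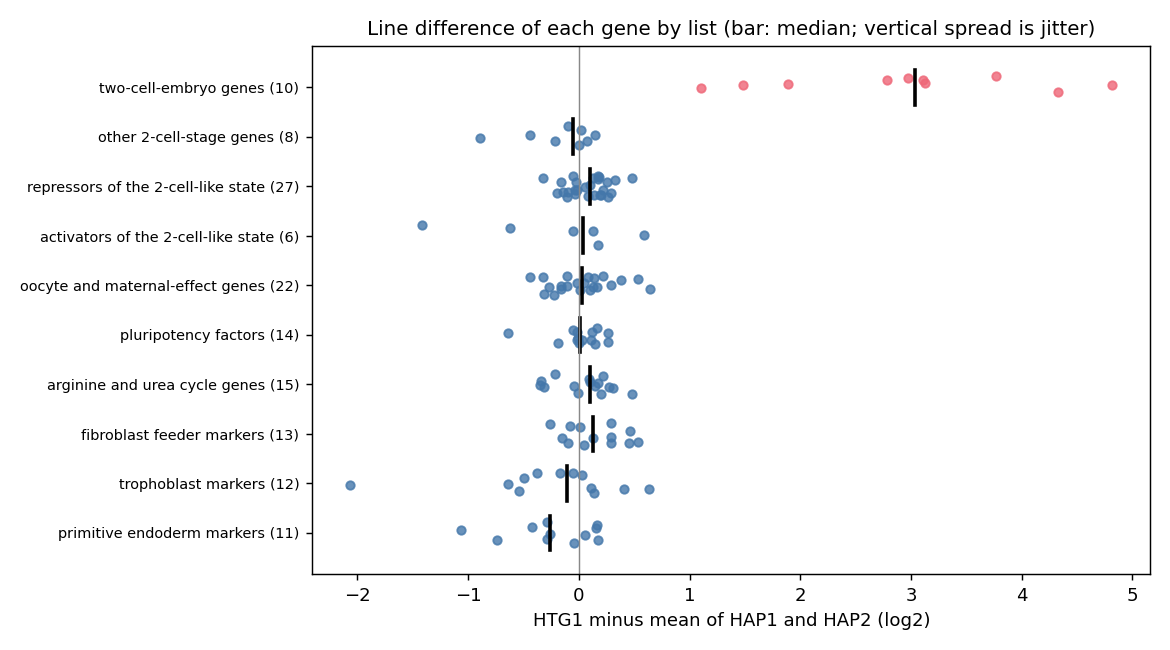
Difference in level between HTG1 and the mean of HAP1 and HAP2 (log2, horizontal) for each measured gene of 10 lists, 1 point per gene, with the number of genes beside each name and a bar at the median. The 10 selected genes, which were chosen for this difference, lie from 1.10 to 4.82, and the 8 other 2-cell-stage genes lie from -0.89 to 0.15.

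Markers of the cells in the cultures were compared in the same way. The pluripotency factor Pou5f1 had levels of 13.6, 13.5 and 13.5 on the diploid arrays, 13.9 in HAP1, 13.9 in HAP2 and 14.0 in HTG1. Its difference between HTG1 and HAP was 0.11 (limma adjusted p = 0.918). In that comparison 0 of 14 pluripotency factors passed by limma, with 1 at an unadjusted p under 0.05. Fibroblast feeder markers, 13 measured, had a summed linear level of 1155 to 1962 on the diploid arrays, 695.3 to 788.5 in the HAP lines and 851.4 in HTG1. Col1a1 differed by 0.54 between HTG1 and HAP (limma adjusted p = 0.389) and Col1a2 by 0.13 (limma adjusted p = 0.991). Trophoblast markers, 12 measured, summed to 3762 to 4573 in diploid, 3774 to 4218 in HAP and 2927 in HTG1, and primitive endoderm markers, 11 measured, to 5168 to 5974, 6258 to 11822 and 4438. These sums rest on few genes: Sparc alone had a level of 13.4 in HAP2 and 11.8 in HTG1. The median level of the primitive endoderm markers was 6.17 in HTG1, within the diploid range of 5.76 to 6.17, and that of the trophoblast markers was 6.69 in HTG1, below the 6.72 to 7.54 of the other arrays. The 10 selected genes summed to 342.7 to 376.2 in diploid, 535.6 to 569.2 in HAP and 7550 in HTG1. In HTG1 against HAP, 0 genes of the 3 marker lists passed by limma, with 1, 2 and 2 at an unadjusted p under 0.05. In that comparison 9.17% of all genes had such an unadjusted p, and nothing is read from these counts. Dppa5a, a pluripotency factor, differed by -0.06 between HTG1 and HAP. The same difference was -0.64 for Tfap2c and 0.41 for Krt8, both trophoblast markers. Over the 12 trophoblast markers it ran from -2.07 for Krt7 to 0.64 for Gata3, and 5 of them were positive. HTG1 differed from HAP by -0.74 for Lama1 and -1.06 for Sparc, both primitive endoderm markers. HTG1 differed from diploid by -0.18 for Col1a1, -2.54 for Col1a2, 0.10 for Tfap2c and -1.94 for Krt8. For Gata3 and Krt7 it differed from diploid by 1.82 and -1.14. For Sparc and Lama1 it differed from diploid by -0.17 and -1.46. The part of feeder, trophoblast and primitive endoderm cells in the levels of the 10 genes was not tested.

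Genes outside the set with the widest gap from HTG1 to the next array were named by rule, as a description without a test. BC080696 had a gap of 3.92 (rank 3) and Pramel18, of the Prame gene family, one of 3.70 (rank 5). The anion exchanger Slc4a3 had a gap of 3.50 (rank 6), the cell adhesion molecule Alcam 3.25 (rank 7) and 3110040M04Rik 3.21 (rank 8). Rpgrip1, of the photoreceptor cilium, followed with 3.16 (rank 9), ahead of Tmem45a2 with 3.06 (rank 10) and the metalloprotease Mep1b with 2.75 (rank 13). Gm11544 had a gap of 2.70 (rank 15) and the cadherin Cdh4 one of 2.57 (rank 17). Thus 7 of the 20 widest gaps were those of the selected genes. The patterns most like the mean of the 10 over the 6 arrays, among genes with an SD of at least 0.5, were those of Pramel18, Pdlim3, Gm11544, Slc10a6 and Islr2, with a Pearson r of 0.999, 0.996, 0.995, 0.994 and 0.993. With 6 arrays and 1 far point, any gene that is high in HTG1 alone gives a high r.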

How the data were processed

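The deposited table holds log2 values per probe set that the authors obtained by RMA, as the submitters' processing notes name it; the software, version and settings are not given in the sources used here. Of 45101 probe sets, 34945 had 1 symbol, 932 several, 9160 none and 64 were controls; the array medians lay between 6.31 and 6.33. Precision is limited by how few arrays there are. limma 3.58.1 in R 4.3.3 was fitted to 18193 genes with 3 groups (diploid, HAP1 with HAP2, HTG1), two-sided, with Benjamini-Hochberg adjustment over all genes. The lone HTG1 array was assumed to vary like the others. The fit was tested on simulated data. The members and lists were chosen with earlier results of these data known, and the limit of 4.80 for bounds after the data were seen. Genes other than members were named by a rule: from each list the 2 (other 2-cell-stage genes: 4) with the highest mean where none passed, the 10 widest gaps in HTG1, the 5 most alike patterns, and the nearest measured gene beside the cluster. Obox3, Dppa3, Gata2, Nelfa, Atrx, Max, Ctcf, Zfp560, Hmgcs1, Ccl28, Tmem267, Zfp131, Gm46390, AF067063, Arg1, Ankrd31 and Duxf3 were named outside it, after their values were seen. Gata3 and Krt7 were also named outside the rule, after their values were seen. Promoters and gene order came from RefSeq tables of GRCm38.p6. Alternatives were another normalization, aligned medians, brighter genes, other probe set rules, trend and robust eBayes, a 2-fold limit and omission of each array.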

Additional observations from a re-analysis of the deposited data

Results flagged for a closer look

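For 2 genes beside the chromosome 13 cluster the effect against diploid cells differed between HTG1 and the other haploid lines by a test of that difference. AF067063 was higher by 2.16 (log2, limma adjusted p = 0.0130) in HTG1 than in HAP1 and HAP2, and D13Ertd608e by 1.84 (limma adjusted p = 0.0285). HTG1 is 1 array, and whether the probe sets of these genes also read RNA of the cluster's copies was not tested. The 10 selected genes are left out here because they were chosen for this difference.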

How the results depend on the processing

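No paired analysis was possible because the haploid numbers are names of lines and the diploid numbers name arrays, so an equal number pairs no samples. For the 10 genes, the difference between HTG1 and HAP and that between HTG1 and diploid stayed positive under every alternative that kept the gene. These genes were selected as high in HTG1, so nothing is read from that sign. Trend and robust eBayes changes no difference, and omitting a diploid array cannot move the difference between HTG1 and HAP. The number of genes past the limit in HTG1 against HAP was 68, or 26 when genes dimmer than the median were left out, and 25 to 123 with 1 array left out (25 without diploid replicate 3, 33 without diploid replicate 2, 123 without HAP2). In HTG1 against diploid it was 1516, or 797 at a 2-fold limit, and 251 to 1675 with 1 array left out (251 without diploid replicate 3, 388 without diploid replicate 2). In HAP against diploid it was 1997, or 634 at a 2-fold limit, and 389 to 2253 with 1 array left out (389 without diploid replicate 3, 624 without diploid replicate 2, 662 without HAP2, 1267 without HAP1). Leaving out dim genes means that fewer genes are tested; the cause of the other shifts was not tested. Of the 8 other 2-cell-stage genes, 0 passed in HTG1 against HAP under every alternative. Several genes lay near the lower end of the array's range, where the size of a fold is least certain.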
